A study of Homo sapiens with 6 samples.

Results

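The 10 histone acetyltransferase genes EP300, CREBBP, KAT2A, KAT2B, HAT1, KAT5, KAT6A, KAT6B, KAT7 and KAT8 were followed through an RNA-seq experiment on MDA-MB-231 cells, a triple-negative human breast cancer cell line. They were chosen by NCBI Gene ID from the 16623 genes of the processed files, and all 10 were found and had values in all 6 libraries. The cells had been kept with the solvent DMSO, with 100 nM PCI-24781 or with 200 nM PCI-24781, each for 24 h or 48 h. PCI-24781 is a small-molecule inhibitor of histone deacetylases (HDACs). The groups, called DMSO 24 h, 100 nM 24 h, 200 nM 24 h, DMSO 48 h, 100 nM 48 h and 200 nM 48 h, had 1 library each, all from the same line.

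Histone acetyltransferases move an acetyl group from acetyl-CoA to lysines of histone tails, and HDACs take it off again, so the enzymes inhibited by PCI-24781 work against the products of these genes. The family has 3 main branches. EP300 and CREBBP encode the large coactivators p300 and CBP, the GNAT branch includes KAT2A, KAT2B and HAT1, and the MYST branch includes KAT5, KAT6A, KAT6B, KAT7 and KAT8. Most of these enzymes act inside large complexes whose other subunits choose the histone and the site.

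The authors gave expression as FPKM, fragments per kilobase of transcript and corrected for the mapped fragments of the library. A lower FPKM is therefore a lower share of the library, and a fall in RNA of 1 gene cannot be told apart from a change in total RNA per cell. With 1 library per condition, no difference has a replicate check, and no p-value was calculated. A change is the difference in log2(FPKM + 1), which understates the change of low genes, and calling a gene needed a change of 2-fold or more and 1 FPKM or more in either library. The files hold no counts, and the depth inferred from the steps between low values was about 15700000 to 18000000 fragments per library. Each member rested on approximately 310 or more fragments in every library, and the 95% intervals given for FPKM ratios cover this counting error only. The markers of the line were present, with VIM between 1629 and 2053 FPKM and AXL between 333 and 486. ESR1, PGR and CDH1, which this line lacks, were at 0.39 FPKM or below. Among genes of other cell types, PTPRC (blood) was between 0.76 and 1.01 FPKM and PECAM1 (endothelium) between 0.38 and 2.33. ALB (hepatocyte) was not found among the named genes.

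The upstream sequences of KAT2A, KAT2B and KAT7 show how different the start regions of these genes are. KAT2A had the widest range of log2(FPKM + 1) over the libraries, KAT2B is its paralog, and KAT7 was one of the members furthest below DMSO at 200 nM 24 h. Each line gives the 250 bases before the RefSeq start in GRCh38.p14, 5′ to 3′ on the strand of the gene, at chr17:42121368-42121617 (minus strand) for KAT2A, chr3:20040196-20040445 (plus strand) for KAT2B and chr17:49788431-49788680 (plus strand) for KAT7. Capitals mark matches on either strand to GGGCGG (GC box), TGACG (half-site of the cAMP response element), CCGGAAG (ETS site) and TGCGCA (half-site of NRF1).
KAT2A: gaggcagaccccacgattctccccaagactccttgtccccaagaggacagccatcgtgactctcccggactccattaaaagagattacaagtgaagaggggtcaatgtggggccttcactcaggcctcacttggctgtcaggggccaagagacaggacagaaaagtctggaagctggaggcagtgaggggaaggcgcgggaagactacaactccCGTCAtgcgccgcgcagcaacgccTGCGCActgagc
KAT2B: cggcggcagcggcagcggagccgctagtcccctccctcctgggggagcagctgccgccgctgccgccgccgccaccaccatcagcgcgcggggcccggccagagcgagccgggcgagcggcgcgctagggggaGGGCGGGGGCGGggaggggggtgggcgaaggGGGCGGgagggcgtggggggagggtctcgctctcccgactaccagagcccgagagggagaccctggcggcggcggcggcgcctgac
KAT7: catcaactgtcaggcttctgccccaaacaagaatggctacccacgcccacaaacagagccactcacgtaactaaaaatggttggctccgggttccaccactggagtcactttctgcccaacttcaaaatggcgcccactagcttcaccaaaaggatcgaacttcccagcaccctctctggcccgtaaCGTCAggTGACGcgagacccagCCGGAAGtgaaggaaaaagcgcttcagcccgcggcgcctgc
The KAT2B sequence held 3 GC boxes, overlaps counted, and none of the other motifs. KAT2A held 1 TGACG and 1 TGCGCA, and KAT7 held 2 TGACG and 1 CCGGAAG. Of the 10 members, 8 had a window in the RefSeq table, with 11 windows in all, and KAT6A and KAT8 had none. Of these 11 windows, 6 held a GC box (CREBBP, HAT1, KAT2B and KAT6B), against 42.6% of all 35116 windows. A TGACG stood in 5 of 11 (CREBBP, HAT1, KAT2A, KAT5 and KAT7), against 21.2%. A CCGGAAG stood in 3 of 11 (HAT1, KAT5 and KAT7), against 8.52%. TGCGCA stood in 1 (KAT2A), against 6.89%, and CACGTG (E-box) in 1 (KAT5), against 6.34%. CCAAT stood in 2 of 11 (HAT1 and KAT6B), against 32.0%, and TATAAA in 0 of 11, against 10.7%. CREBBP had 2 windows and KAT6B 3, of which some overlap. The members' windows were 56.4% to 84.0% G and C, and the median over all windows was 58.0%. These matches describe letters only. Whether the members with TGACG differed in expression from the others was not tested. At 200 nM 24 h their log2 change against DMSO 24 h was -0.70 (KAT2A), -0.65 (CREBBP), -0.60 (KAT7), -0.25 (KAT5) and -0.18 (HAT1). For the members with a window and no TGACG it was -0.81 (KAT6B), -0.43 (KAT2B) and -0.31 (EP300).

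All 10 genes were expressed at 2.77 FPKM or more in every library, and their levels differed more between genes than between libraries. The highest library of a gene was between 1.10 times (KAT8) and 2.03 times (KAT6B) its lowest. On the FPKM scale, which is per transcript length, the order of the medians was HAT1, KAT2A, KAT7, KAT5, KAT8, KAT6A, KAT2B, CREBBP, EP300 and KAT6B. HAT1 stood apart, with a median of 59.2 FPKM against 17.1 for KAT2A, and it made up 32.2% to 41.3% of the summed FPKM of the 10 genes. The lowest, KAT6B, had a median of 4.36 FPKM and was below EP300 in 6 of 6 libraries. The ranges over the 6 libraries overlapped for KAT2A and KAT7, for KAT7 and KAT5, for KAT6A and KAT2B, for KAT2B and CREBBP, and for CREBBP and EP300. Within libraries, KAT2B was above CREBBP in 6 of 6, KAT7 above KAT5 and CREBBP above EP300 in 5 of 6, KAT2A above KAT7 in 4 of 6 and KAT6A above KAT2B in 3 of 6. DMSO 24 h was the highest library for 8 of the 10 members, all except EP300 and KAT8. The lowest library was 200 nM 24 h for 5 members and 200 nM 48 h for 3.

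**Figure D1:**
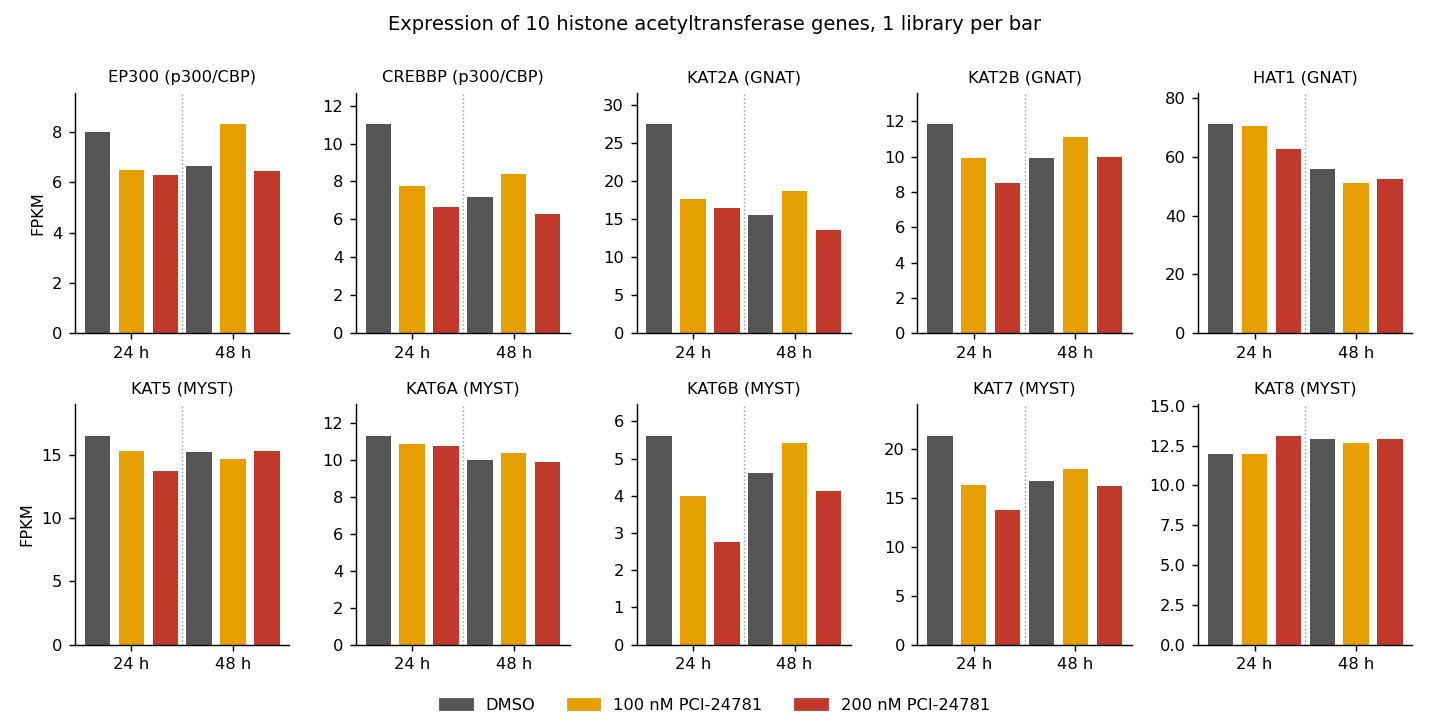
Expression of each member in FPKM (vertical axes, from 0 and on a scale of their own for each gene), with 1 bar per library, DMSO in grey, 100 nM in yellow and 200 nM in red, at 24 h on the left and 48 h on the right of each panel. At 24 h the grey bar is the tallest in every panel except that of KAT8. In EP300, CREBBP, KAT2A, KAT2B, KAT6A, KAT6B and KAT7 the yellow bar is the tallest at 48 h.

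The p300 and CBP coactivators bridge transcription factors to the transcription machinery. EP300 (ID 2033, chr22:41488614-41576081, plus strand; hg19, as are the other positions of genes) was 8.0 FPKM in DMSO, 6.51 at 100 nM and 6.28 at 200 nM at 24 h, and 6.65 in DMSO, 8.31 at 100 nM and 6.47 at 200 nM at 48 h. Its level was thus higher in 100 nM 48 h than in any other library, and both treated libraries of 24 h were below both DMSO libraries. At 24 h the log2 change was -0.26 with 100 nM and -0.31 with 200 nM, and at 48 h it was 0.28 and -0.03. CREBBP (ID 1387, chr16:3775055-3930121, minus strand) was 11.01, 7.76 and 6.64 FPKM at 24 h and 7.16, 8.40 and 6.28 FPKM at 48 h, in the same order of libraries. DMSO 24 h was far above the rest for CREBBP, and both 200 nM libraries were below both DMSO libraries. Its log2 change was -0.46 with 100 nM and -0.65 with 200 nM at 24 h, then 0.20 and -0.17 at 48 h. The FPKM ratio of 200 nM 24 h to DMSO 24 h was 0.603 (95% interval 0.554 to 0.656) for CREBBP and 0.785 (0.723 to 0.852) for EP300.

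KAT2A, also called GCN5, is a catalytic subunit of the SAGA and ATAC coactivator complexes. KAT2A (ID 2648, chr17:40265129-40273382, minus strand) was 27.5 FPKM in DMSO, 17.6 at 100 nM and 16.5 at 200 nM at 24 h, and 15.6, 18.7 and 13.6 FPKM at 48 h. DMSO 24 h stood above the other libraries, which lay between 13.6 and 18.7 FPKM. The log2 change was -0.61 and -0.70 at 24 h, then 0.25 and -0.18 at 48 h. It was -0.78 between the DMSO libraries, 48 h against 24 h. Of the 11475 genes compared at 100 nM 24 h, 117 were further below DMSO than KAT2A, and of the 11490 genes compared between the DMSO libraries, 61 were.

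KAT2B, also called PCAF, takes the place of KAT2A in a share of the same complexes. KAT2B (ID 8850, chr3:20081524-20195896, plus strand) was 11.8, 9.93 and 8.51 FPKM at 24 h and 9.95, 11.1 and 10.00 FPKM at 48 h. Its levels went down with dose at 24 h, and at 48 h the treated libraries lay between the DMSO libraries of 24 h and 48 h. For KAT2B the log2 change was -0.23 and -0.43 at 24 h, then 0.15 and 0.01 at 48 h, and the last of these turned to -0.003 with median-of-ratios scaling. HAT1 (ID 8520, chr2:172778935-172848600, plus strand) acetylates newly made histone H4 before it is placed on DNA. It was 71.0, 70.5 and 62.7 FPKM at 24 h and 55.8, 51.2 and 52.5 FPKM at 48 h. The 3 libraries of 24 h were all above the 3 libraries of 48 h for HAT1. Its FPKM ratio of 200 nM 24 h to DMSO 24 h was 0.883 (0.829 to 0.942). The log2 change of HAT1 was -0.01 and -0.18 at 24 h, then -0.12 and -0.09 at 48 h, with -0.34 between the DMSO libraries.

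KAT6A and KAT6B, also called MOZ and MORF, are paralogs that share the subunits of 1 kind of complex. KAT6B (ID 23522, chr10:76586171-76792380, plus strand) was 5.62 FPKM in DMSO, 3.99 at 100 nM and 2.77 at 200 nM at 24 h, and 4.6, 5.41 and 4.12 FPKM at 48 h. The level at 200 nM 24 h was the lowest of the 6, and both treated libraries of 24 h were below both DMSO libraries. For KAT6B the log2 change was -0.41 and -0.81 at 24 h, then 0.20 and -0.13 at 48 h. At 200 nM 24 h the FPKM ratio to DMSO 24 h was 0.493 (0.434 to 0.559), the lowest of any member in any comparison with DMSO of the same time. With a pseudocount of 0.1 in place of 1 the log2 change of KAT6B was -0.995, just short of 2-fold. The FPKM ratio of 0.493, which has no pseudocount, was just past 2-fold, so that KAT6B was not called rests on the pseudocount. Against DMSO 48 h, 200 nM 24 h was lower by a log2 change of -0.57. KAT6A (ID 7994, chromosome 8) was 11.3, 10.9 and 10.8 FPKM at 24 h and 9.98, 10.4 and 9.88 FPKM at 48 h. No treated library of KAT6A was more than 0.07 on the log2 scale away from the DMSO library of its time, and the intervals of all 4 FPKM ratios held 1.

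KAT7, also called HBO1, acetylates histone H3 and H4 and takes part in replication origin licensing. KAT7 (ID 11143, chr17:47865981-47906458, plus strand) was 21.4, 16.3 and 13.7 FPKM at 24 h and 16.8, 18.0 and 16.3 FPKM at 48 h. DMSO 24 h was the highest and 200 nM 24 h the lowest, with a log2 change of -0.37 at 100 nM and -0.60 at 200 nM. At 48 h the log2 change was 0.09 and -0.04, and both intervals of the FPKM ratio held 1.

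KAT5, also called TIP60, is the catalytic subunit of the NuA4/TIP60 complex and acts in the DNA damage response. KAT5 (ID 10524, chr11:65479473-65487077, plus strand) was 16.6, 15.4 and 13.8 FPKM at 24 h and 15.3, 14.7 and 15.4 FPKM at 48 h. The interval of its FPKM ratio was below 1 at 200 nM 24 h only, at 0.831 (0.727 to 0.949), among the 4 comparisons with DMSO of the same time. KAT5 shares 1934 bases with RNASEH2C on the other strand, which was 15.8 to 23.9 FPKM, and whether the counting used strand is not given in the sources used here, so reads of these genes may not be separated. KAT8, also called MOF, acetylates histone H4 in the MSL and NSL complexes. KAT8 (ID 84148, chr16:31128985-31142714, plus strand) was 11.96, 11.96 and 13.14 FPKM at 24 h and 12.95, 12.66 and 12.95 FPKM at 48 h. It had the narrowest range of the 10 members, and all 4 intervals of its FPKM ratio held 1. The span that the files give for the ribosomal protein gene RPS15A covers much of chromosome 16, KAT8 included, and may be an error in the coordinates. Whether reads were shared was not tested.

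At 24 h, nearly all members were lower with PCI-24781 than in DMSO, most of all KAT6B, KAT2A, CREBBP and KAT7 at 200 nM. None reached the 2-fold threshold on the scale of log2(FPKM + 1), which for KAT6B at 200 nM rests on the pseudocount. At 100 nM 0 of 10 members were called and at 200 nM 0 of 10. Over all compared genes, 1.48% and 5.96% were called in either direction. At a 1.5-fold threshold, 1 member was lower at 100 nM (KAT2A), where 1.25% of genes were, and 4 of 10 were lower at 200 nM (KAT6B, KAT2A, CREBBP and KAT7), where 7.61% of genes were. Counting changes of any size, 9 of 10 members were lower at 100 nM and KAT8 was equal, against 48.1% of genes lower. At 200 nM 9 of 10 were lower and KAT8 was higher, against 48.6% of genes lower. The median log2 change of the 10 members was -0.25 at 100 nM and -0.37 at 200 nM, and that of all compared genes was 0.01 in both. The interval of the FPKM ratio lay below 1 for 6 members at 100 nM and for 8 at 200 nM. It lay above 1 for 0 members. Between the DMSO libraries, 48 h against 24 h, the interval also lay below 1 for 8 members. Intervals were calculated for the members only, so no share over all genes can be set beside these counts.

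**Figure D2:**
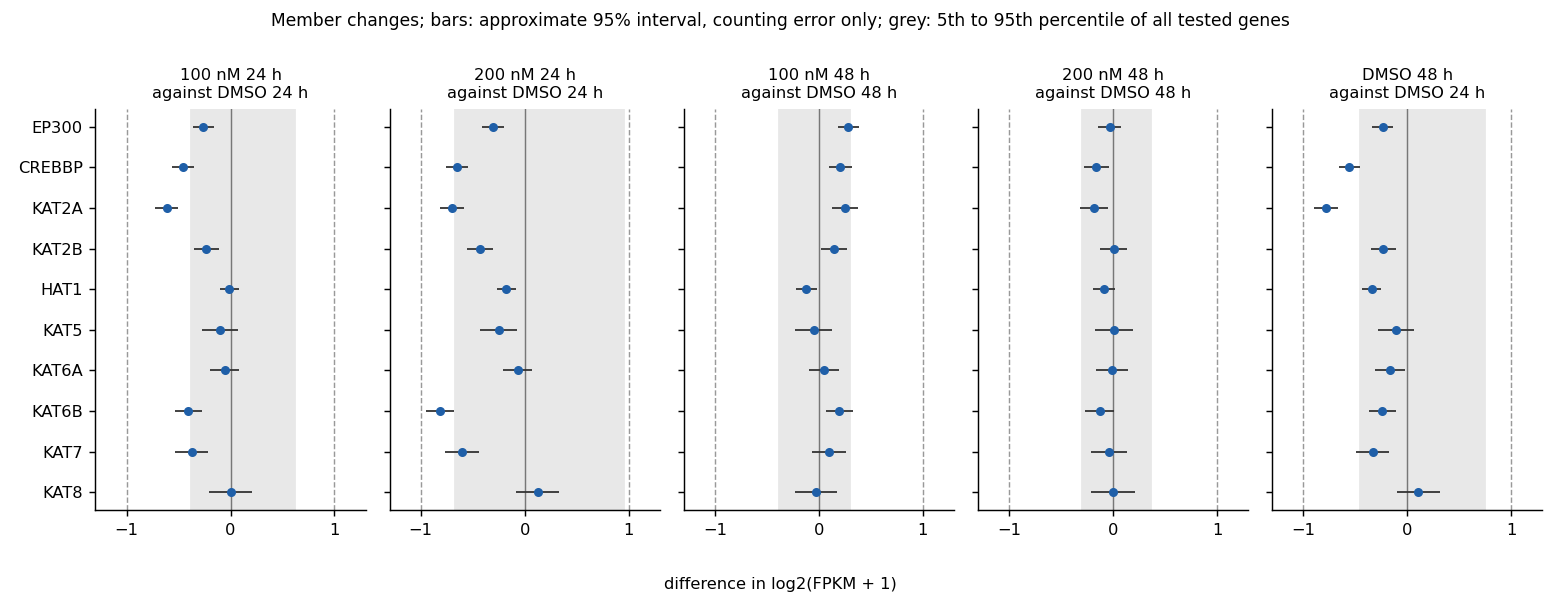
Change of each member, as the difference in log2(FPKM + 1) (horizontal axis), in 4 comparisons of PCI-24781 with DMSO of the same time and between the DMSO libraries. Points are 1 library against 1 library, bars are approximate 95% intervals for counting error only, the grey band runs from the 5th to the 95th percentile of all compared genes and dashed lines mark 2-fold. KAT2A lies below the band at 100 nM 24 h, at 200 nM 24 h and between the DMSO libraries. KAT6B lies below it at 100 nM 24 h and 200 nM 24 h, and CREBBP at 100 nM 24 h and between the DMSO libraries. No point reaches a dashed line.

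The 24 h comparisons rest on the DMSO 24 h library, and the members differed between the DMSO libraries by about as much as between treatment and DMSO. From 24 h to 48 h in DMSO, 9 of 10 members were lower, against 50.2% of genes, with a median log2 change of -0.24 (-0.003 over all genes). At 2-fold, 0 of 10 members were called, where 2.62% of genes were, and at 1.5-fold 1 was lower, KAT2A, where 1.94% of genes were. When the 24 h treated libraries were set against DMSO 48 h, 5 of 10 members were lower at 100 nM (47.0% of genes), with a median log2 change of 0.004, and 6 of 10 at 200 nM (48.8% of genes), with a median of -0.08. At 1.5-fold, 0 of 10 members were then lower at 100 nM, where 2.77% of genes were, and 0 of 10 at 200 nM, where 5.25% were. Against both DMSO libraries at once, EP300, CREBBP, KAT2B, KAT5, KAT6B and KAT7 were below both at 200 nM 24 h, which is 6 of 10 members, where 35.2% of genes were below both. KAT2A, HAT1 and KAT6A lay between the DMSO libraries, and KAT8 was above both. For the changes against DMSO 24 h, PCI-24781, the particular DMSO 24 h library and an exchange of labels cannot be told apart. Culture time was the same in these comparisons. It differed between the DMSO libraries and where 24 h libraries were set against DMSO 48 h.

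At 48 h the members were close to DMSO of that time, and the member medians of the doses lay on different sides of it. At 100 nM, 7 of 10 members were higher and 3, HAT1, KAT5 and KAT8, were lower, with a median log2 change of 0.12 against -0.01 over all genes. Counting changes of any size, 47.2% of genes were higher. The interval of the FPKM ratio was above 1 for EP300, CREBBP, KAT2A, KAT2B and KAT6B and below 1 for HAT1. EP300 had the largest change at 100 nM 48 h, with an FPKM ratio of 1.25 (1.155 to 1.353), and 643 of 11514 genes were further above DMSO. At 200 nM, 7 of 10 members were lower, KAT2B and KAT5 were higher and KAT8 was equal, against 48.6% of genes lower, with a median log2 change of -0.04. CREBBP, at 0.877 (0.796 to 0.966), and KAT2A, at 0.873 (0.787 to 0.967), were the members whose interval was below 1. At 2-fold 0 of 10 members were called at either dose, where 0.469% and 0.266% of genes were called, and at 1.5-fold also 0 of 10, where 2.27% and 1.99% were.

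Set directly against the lower dose, the higher dose gave lower values for most members at both times. Between 200 nM 24 h and 100 nM 24 h, 9 of 10 members were lower and KAT8 was higher, with a median log2 change of -0.16, and 50.6% of all compared genes were lower. Between 200 nM 48 h and 100 nM 48 h, 7 of 10 were lower, with a median of -0.14, where 47.8% of genes were. At 2-fold 0 of 10 members were called in each, against 0.524% and 2.0% of genes. The widest steps were those of KAT6B at 24 h, with an FPKM ratio of 0.694 (0.606 to 0.795), and of KAT2A at 48 h, with 0.725 (0.656 to 0.799). These comparisons do not use the DMSO libraries. They share the treated libraries with the comparisons above.

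Ratios of paralogs within a library do not depend on the scaling of that library. The 24 h ratio of KAT6A to KAT6B was 2.02 for DMSO, 2.73 for 100 nM and 3.88 for 200 nM, and 2.17, 1.92 and 2.40 at 48 h. The ratio at 200 nM 24 h, with an interval of 3.41 to 4.43, was above the intervals of all the other libraries. The KAT2A to KAT2B ratio was 2.32, 1.78 and 1.94 at 24 h and 1.56, 1.69 and 1.36 at 48 h, highest in DMSO 24 h and lowest in 200 nM 48 h. KAT2A was above KAT2B in 6 of 6 libraries. The CREBBP to EP300 ratio was 1.38, 1.19 and 1.06 at 24 h, then 1.08, 1.01 and 0.971 at 48 h. The interval of this ratio held 1 in every library except DMSO 24 h and 100 nM 24 h. The submitters' processing notes name RSEM. Its settings for fragments shared between paralogs are not given in the sources used here.

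**Figure D3:**
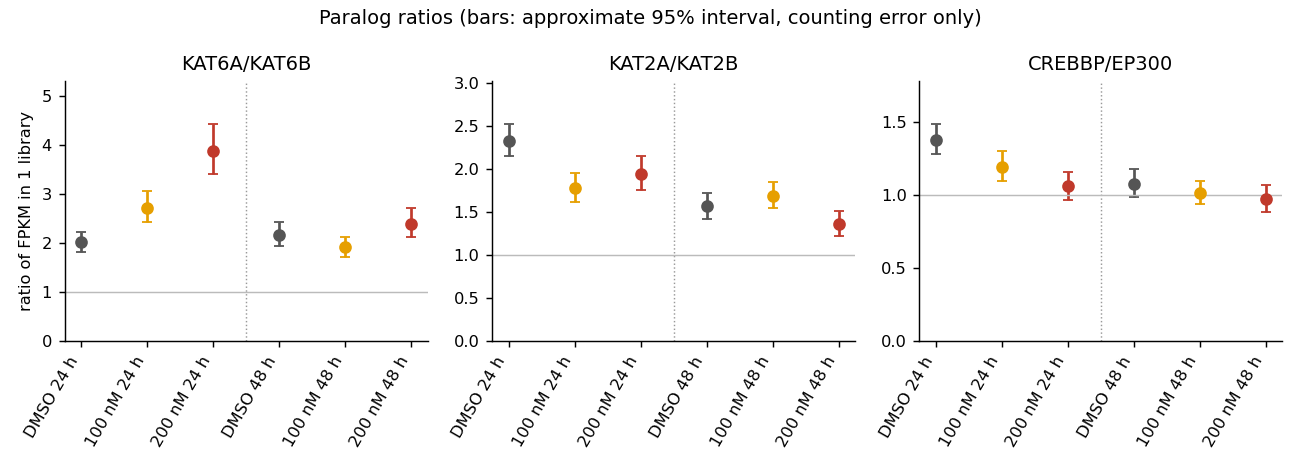
Ratio of the FPKM of paralogs within each of the 6 libraries (vertical axes, from 0), with approximate 95% intervals for counting error only, DMSO in grey, 100 nM in yellow and 200 nM in red. The KAT6A to KAT6B ratio climbs from 2.02 to 3.88 over the 24 h libraries, while the KAT2A to KAT2B and CREBBP to EP300 ratios are highest in DMSO 24 h.

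Summed over branches, EP300 and CREBBP came to 19.0 FPKM in DMSO, 14.3 with 100 nM and 12.9 with 200 nM at 24 h, then to 13.8, 16.7 and 12.8 at 48 h. The 3 GNAT genes summed to 110.3, 98.0 and 87.7 FPKM at 24 h and to 81.3, 81.0 and 76.0 at 48 h, and HAT1 was the larger part of each sum. The 5 MYST genes summed to 66.9, 58.5 and 54.2 FPKM at 24 h and to 59.6, 61.1 and 58.6 at 48 h. All 3 branches were thus highest in DMSO 24 h, and over 48 h the MYST sum varied least.

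Subunits of the complexes in which these enzymes work were lower at 200 nM 24 h in most cases, and few were called. Of 21 SAGA and ATAC subunits, which surround KAT2A and KAT2B, 19 were lower than in DMSO 24 h, 0 were called at 2-fold and 3 were lower by 1.5-fold, with a median log2 change of -0.19. Over all compared genes, 48.6% were lower, 5.96% were called, 7.61% were lower by 1.5-fold and the median was 0.01. The lists of subunits overlap, since TRRAP, MEAF6 and WDR5 each stand in more than 1. WDR5, a scaffold protein of several chromatin complexes, was 38.8, 28.8 and 23.2 FPKM at 24 h and 23.0, 25.7 and 21.5 at 48 h. TAF6L, a core subunit of SAGA, was 5.62, 4.21 and 3.11 FPKM at 24 h and 3.99, 4.47 and 3.63 at 48 h. Both had DMSO 24 h as their highest library, as KAT2A did. Against DMSO 48 h, 14 of the 21 were lower at 200 nM 24 h, and 0 by 1.5-fold, where 48.8% and 5.25% of genes were.

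Of 17 NuA4/TIP60 subunits, the partners of KAT5, 13 were lower at 200 nM 24 h, where 48.6% of all compared genes were. Of the 17, 0 were called and 1 was lower by 1.5-fold, where 5.96% and 7.61% of genes were. The median log2 change was -0.14. EPC1, a scaffold of the complex, was 13.1, 9.22 and 7.22 FPKM at 24 h and 10.1, 10.4 and 9.63 at 48 h. The bromodomain subunit BRD8 was 43.0, 37.2 and 30.0 FPKM at 24 h and 33.1, 38.4 and 32.0 at 48 h. EPC1 and BRD8 were lowest in 200 nM 24 h, below both DMSO libraries. Against DMSO 48 h, 12 of the 17 were lower at 200 nM 24 h, where 48.8% of genes were.

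The list of subunits of KAT6A, KAT6B and KAT7 complexes held the partner genes furthest below DMSO 24 h at 200 nM. Of 9, 7 were lower at 200 nM 24 h, where 48.6% of all compared genes were. BRPF3 and JADE2, 2 of the 9, were called lower at 2-fold, where 1.48% of genes were. BRPF3, a scaffold that joins the MYST enzyme to its chromatin-binding subunits, was 18.4, 10.8 and 6.53 FPKM at 24 h and 11.47, 14.27 and 9.61 at 48 h. JADE2, a scaffold of KAT7 complexes, was 23.4, 15.2 and 9.44 FPKM at 24 h and 15.2, 20.0 and 11.9 at 48 h. For both, the 200 nM library was the lowest of its time and the 100 nM library was the highest at 48 h, with a log2 change at 200 nM 24 h of -1.37 for BRPF3 and -1.22 for JADE2. Against DMSO 48 h, 6 of the 9 were lower at 200 nM 24 h, 3 by 1.5-fold and 0 by 2-fold, and of all compared genes 48.8%, 5.25% and 1.23% were.

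Of 11 MSL and NSL subunits, the partners of KAT8, 11 were lower at 200 nM 24 h, where 48.6% of all compared genes were. By 1.5-fold 3 of 11 were lower, where 7.61% of genes were. The median log2 change was -0.35, although KAT8 itself was higher by 0.13. KANSL2, an NSL subunit, was 6.55, 4.75 and 3.76 FPKM at 24 h and 4.8, 5.42 and 4.28 at 48 h. All 11 were also lower in DMSO 48 h than in DMSO 24 h, where 50.2% of genes were, with a median of -0.25. Against DMSO 48 h, 7 of the 11 were lower at 200 nM 24 h, where 48.8% of genes were. Of 5 partners of HAT1 and chaperones of histones H3 and H4, 4 were lower at 200 nM than in DMSO at 24 h. Over all compared genes, 48.6% were lower. The median log2 change of the 5 was -0.45. All 5 were also lower in DMSO 48 h than in DMSO 24 h, where 50.2% of genes were, with a median of -0.14. Against DMSO 48 h, 4 of the 5 were lower at 200 nM 24 h, where 48.8% of genes were, with a median of -0.22. RBBP4, a histone-binding protein that accompanies HAT1 and several HDAC complexes, was 20.3, 17.8 and 13.0 FPKM at 24 h and 19.1, 19.7 and 18.6 at 48 h. NASP, a chaperone of H3 and H4, was 64.2, 62.1 and 44.4 FPKM at 24 h and 51.8, 52.2 and 42.2 at 48 h. RBBP4 was lowest in 200 nM 24 h alone, while NASP was low at 200 nM at both times.

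The proteins that recruit or bind p300 and CBP held the genes called higher. Of 10, 6 were higher at 200 nM 24 h, where 51.2% of all compared genes were, with a median log2 change of 0.11. CITED2, CITED4 and MAML3, 3 of the 10, were called higher at 2-fold, where 4.49% of genes were. Some of the 6, CITED4 and MAML3 among them, were below 1 FPKM in DMSO 24 h. They entered the comparison only through the 200 nM 24 h library, so the calls of CITED4 and MAML3 rest on a reference below 1 FPKM. CITED2, which binds p300 and CBP and competes with hypoxia-inducible factors for them, was 102.8, 131.2 and 213.4 FPKM at 24 h and 149.2, 143.6 and 153.7 at 48 h. Its 200 nM 24 h level was above all other libraries. CITED4, a relative of CITED2, was 0.55, 0.96 and 2.65 FPKM at 24 h and 2.03, 2.22 and 3.07 at 48 h. MAML3, a Notch coactivator that recruits p300, was 0.74, 1.57 and 2.76 FPKM at 24 h and 2.02, 1.67 and 2.43 at 48 h. CITED4 and MAML3 were lowest in DMSO 24 h, and against DMSO 48 h 0 of the 10 were called higher at 200 nM 24 h, where 0.863% of genes were.

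Among 13 other acetyltransferases, 10 were lower at 200 nM 24 h and 0 were called, where 48.6% and 5.96% of all compared genes were. The median log2 change was -0.24. The nuclear receptor coactivator NCOA3 was 6.76, 8.27 and 12.5 FPKM at 24 h and 10.2, 8.15 and 12.6 at 48 h. NAT10, an RNA acetyltransferase, was 31.3, 24.6 and 18.9 FPKM at 24 h and 20.3, 22.5 and 17.3 at 48 h. NCOA3 was thus higher at 200 nM at both times and NAT10 lower. Of 8 genes that supply acetyl-CoA, 4 were lower and 4 higher at 200 nM 24 h, with 0 called and a median of -0.09. The largest changes were those of CRAT, the carnitine acetyltransferase, at 0.46, and ACSS2, an acetyl-CoA synthetase, at 0.33, and the 48 h DMSO library also exceeded the 24 h one for both, by 0.54 and 0.50.

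At 200 nM 24 h the zinc-dependent HDACs, which include the targets of PCI-24781, did not share the direction of the acetyltransferases. Of 11, 7 were higher and 4 lower, with 0 called and a median log2 change of 0.12. Of the acetyltransferases 1 of 10 was higher, with a median of -0.37. Over all compared genes, 51.2% were higher and 5.96% were called. No test was made of the difference between the lists. At 100 nM 48 h, 8 of 11 HDACs and 7 of 10 acetyltransferases were higher, where 47.2% of genes were. HDAC5 was 4.42, 6.29 and 9.76 FPKM at 24 h and 13.1, 13.2 and 14.3 at 48 h. HDAC11 was 2.93, 3.88 and 5.29 FPKM at 24 h and 4.55, 4.66 and 5.48 at 48 h. Both were lowest in DMSO 24 h, and HDAC5 was called higher between the DMSO libraries, from 24 h to 48 h, where 2.49% of genes were. Against DMSO 48 h, 6 of the 11 HDACs were higher at 200 nM 24 h, with a median of 0.02, and 51.1% of genes were higher. With that reference, 4 of 10 acetyltransferases were higher, with a median of -0.08.

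**Figure D4:**
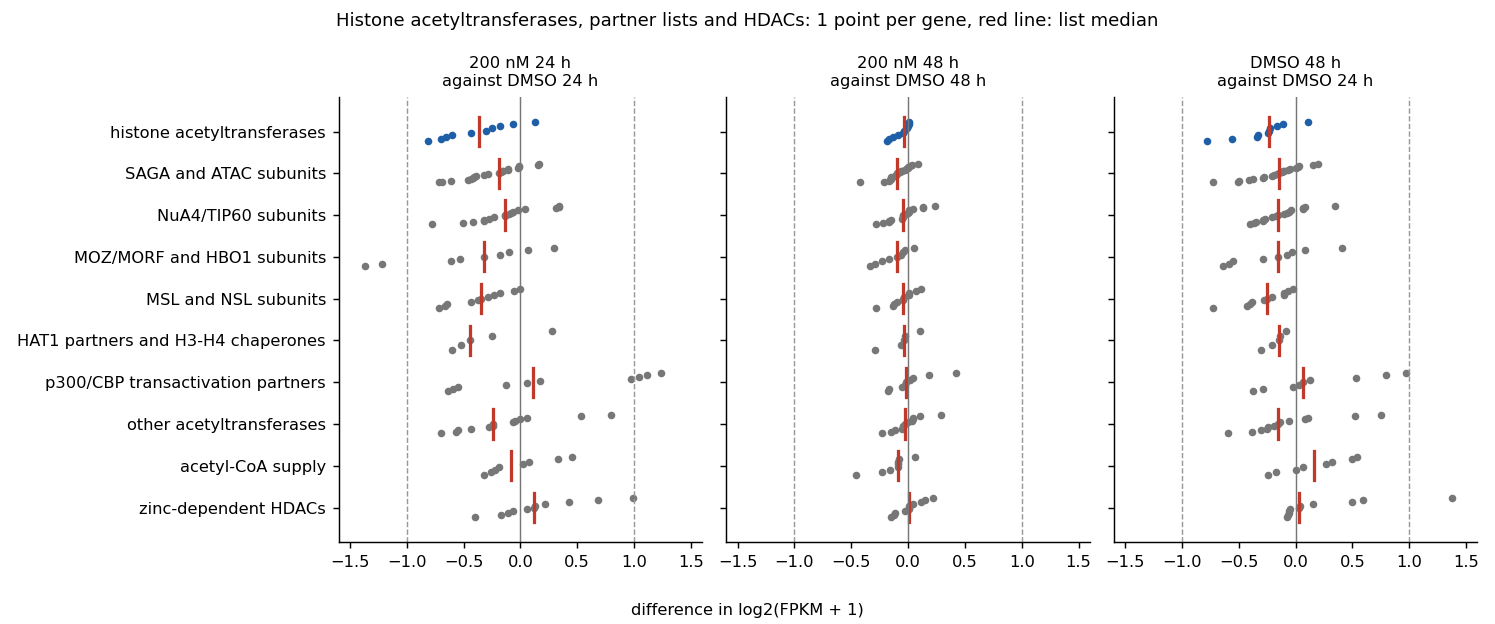
Change of every compared gene of the 10 lists, as the difference in log2(FPKM + 1) (horizontal axis), with the histone acetyltransferases in blue, the other lists in grey and the median of each list as a red line. At 200 nM 24 h the medians lie between -0.45 and 0.12, at 200 nM 48 h they lie between -0.10 and 0.01, and between the DMSO libraries the acetyltransferase median is -0.24.

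The genes whose pattern over the 6 libraries was closest to that of KAT2A, the member with the widest range of log2(FPKM + 1), were L3MBTL2, TAF9 and DUS1L. Likeness was the distance between the values of log2(FPKM + 1), each centred on its mean over the 6 libraries, among 10809 genes that reached 1 FPKM in every library. The distance was 0.14 for L3MBTL2, 0.17 for TAF9 and 0.17 for DUS1L. L3MBTL2 was 6.89, 4.08 and 3.56 FPKM at 24 h and 3.67, 4.71 and 3.28 at 48 h. TAF9 was 85.9, 59.1 and 55.6 FPKM at 24 h and 56.9, 67.1 and 48.1 at 48 h. DUS1L was 21.7, 14.6 and 15.2 FPKM at 24 h and 12.93, 14.96 and 11.02 at 48 h. Like KAT2A, all 3 were highest in DMSO 24 h, lowest in 200 nM 48 h, and above DMSO 48 h in 100 nM 48 h. They were chosen for their likeness over these same libraries, so the shared pattern is not a separate result.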

How the data were processed

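RNA of MDA-MB-231 cells was enriched for mRNA or depleted of rRNA and sequenced by a company. The deposited files hold FPKM values per gene from the authors, with 2 decimals. The submitters' processing notes name Bowtie2, RSEM and the genome build hg19. Versions, strand use and filters are not given in the sources used here. Genes were named by NCBI Gene ID from the RefSeq table of GRCh38.p14, which held 16585 of 16623 genes.

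Differences in log2(FPKM + 1) were taken over all genes that reached 1 FPKM in either library. Depth came from the spacing of low FPKM values among single-transcript genes 500 to 1500 bases long, and fragments per gene from it and the shortest GENCODE release 29 transcript. The intervals assume Poisson counts at this depth. They are approximate, and fragments without molecular identifiers are not independent molecules. Median-of-ratios factors used genes above 0 in every library. Scripts were tested on simulated data with counting error only. The changes set there were larger than those of the members, so calls at the size seen in the members were not tested. Count tests were not possible on these values. The members and gene lists were chosen with earlier results of these data known. Of each list other than the members, the genes named are those called in any of the 4 comparisons with DMSO of the same time, at most 5 a list, and the 2 with the largest absolute change at 200 nM 24 h. Motifs were searched on both strands of the RefSeq upstream windows. Alternatives were a pseudocount of 0.1, no filter, 1 FPKM or more in both libraries, TPM, median-of-ratios factors, a 1.5-fold threshold, the DMSO library of the other time and, added after seeing the data, counts of members lower by any amount and of the lists against that library. Python 3.11.15, numpy 2.4.6, pandas 2.3.3, scipy 1.17.1 and matplotlib 3.10.9 were used.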

Additional observations from a re-analysis of the deposited data

Results flagged for a closer look

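KAT2B was lower at both doses at 24 h, with a log2 change of -0.231 at 100 nM and -0.432 at 200 nM, and higher at both doses at 48 h, with 0.145 at 100 nM and 0.007 at 200 nM. It was the only member of the 10 with each dose on one side of DMSO at 24 h and each dose on the other side at 48 h. The difference between the times was not tested. The value of 0.007 corresponds to 10.00 against 9.95 FPKM and turned to -0.003 with median-of-ratios scaling, and the interval of its FPKM ratio, 0.91 to 1.11, held 1. Against the DMSO library of the other time, KAT2B was lower in all 4 comparisons, with -0.003 and -0.203 at 24 h and -0.083 and -0.222 at 48 h.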

How the results depend on the processing

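No paired analysis was possible because the labels give no replicate numbers to pair. A fit of dose with time as a block, which would take the 24 h and 48 h libraries of a dose as replicates, was not run. The reference library moved the results most. With the DMSO library of the other time, the median log2 change of the members went from -0.246 to 0.004 at 100 nM 24 h, from -0.369 to -0.083 at 200 nM 24 h, from 0.12 to -0.14 at 100 nM 48 h and from -0.038 to -0.32 at 200 nM 48 h. The members lower by any amount went from 9 to 5 at 100 nM 24 h and from 3 to 8 at 100 nM 48 h. Of the 40 single member changes, 17 then turned direction. The 1.5-fold threshold gave 1 member at 100 nM 24 h, 4 at 200 nM 24 h and 1 between the DMSO libraries, against 0 each at 2-fold. With a pseudocount of 0.1, no filter, 1 FPKM or more in both libraries, TPM or median-of-ratios factors, 0 members were called in any comparison, and every median kept its direction and moved by less than 0.1. Of the 50 single changes, 1 turned with TPM and 3 with median-of-ratios factors, all at 48 h and all within 0.03 of 0. At 200 nM 48 h, 10 members were lower with median-of-ratios factors and 6 with TPM, against 7. Depth limits KAT8 most, at about 310 to 348 fragments per library, and KAT6B had about 361 at 200 nM 24 h.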
